A study of Capra hircus with 2 samples.

Results

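The miR-130, miR-301 and miR-454 family was compared between natural killer (NK) cells from uterus and from blood of goats. NK cells are innate lymphocytes, and those of the uterus are known for their part in the remodelling of its vessels in pregnancy. The members were selected by name, as every row of the authors' deposited comparison that is called chi-miR-130a, chi-miR-130b, chi-miR-301a, chi-miR-301b or chi-miR-454, whichever arm of the precursor it names. This gave 8 of the 590 mature miRNAs in the table. They are both arms of miR-130a, of miR-130b and of miR-454, the 5p arm of miR-301a, and miR-301b, whose name gives no arm. miR-301a-3p is not analysed here, so the sums and shares of the family given below cover these 8 rows only.

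There was 1 small RNA library of uterine NK cells (uNK) and 1 of NK cells of peripheral blood (pNK), both labelled as female. The labels give no age, breed, reproductive stage, number of animals or marker used for the separation, and no treatment other than the separation itself. With 1 library per group there was no spread between animals and no test between the groups was possible. The intervals given are 95% exact Clopper-Pearson intervals (for ratios of ratios, exact conditional intervals), which cover counting error in these libraries only. In bulk libraries, more cells that express a miRNA and more of the miRNA per cell cannot be told apart.

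A miRNA is cut from a hairpin precursor with a 5p and a 3p arm, and the arm that is loaded into Argonaute finds its targets mainly through its seed, the bases near its 5′ end. In mammals the 3p arms of miR-130a, miR-130b, miR-301a, miR-301b and miR-454 carry the same seed and are grouped as one family for that reason, whereas their 5p arms, usually the less abundant ones, have other seeds. In human cells miR-130a is best known from endothelium, where it promotes vessel growth, and miR-301a from activating NF-κB signalling. The family as a whole is known to repress PPARG in human cells. The 3p arms are close in sequence, and how the authors' counting shared reads between them is not given in the sources used here, so the split between miR-130a-3p and miR-130b-3p is uncertain to that extent.

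In the goat gene table of the ARS1.2 assembly all 5 precursors were found, each with 1 entry. MIR301A and MIR454 are neighbours within the span of SKA2, a gene whose protein acts at the mitotic spindle. MIR130A lies apart from them, between YPEL4 and SERPING1. MIR130B and MIR301B are on sequence with no placed chromosome, so whether they are neighbours in the goat was not tested; in the human genome they form a pair.

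Scaled to the library totals, the 8 rows summed to nearly the same level in both libraries, while the member that supplied most of the reads differed. Together the rows had 10068 reads in uNK and 10015 reads in pNK, or 317 and 333 reads per 1000000 reads of the library (RPM). The ratio of these sums, uNK over pNK, was 0.951 (0.925 to 0.978). Over the 4 rows of a 3p arm or of no named arm, which leave out the named 5p arms, the sums were 316 RPM in uNK and 293 RPM in pNK, a ratio of 1.08 (1.05 to 1.11). The size and side of either ratio depended on the scaling between the libraries. The sum over all rows was higher in uNK when scaled to the totals of the listed miRNAs (log2 0.27) or by TMM (0.67). With the median ratio it was lower (-0.74), as was the sum over the 4 rows (-0.56).

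Within the family, the shares of the reads do not depend on that scaling. miR-130a-3p made up 78.8% of the family reads in uNK (78.0 to 79.6%) and 7.11% in pNK (6.61 to 7.63%). miR-454-3p made up 18.97% in uNK (18.2 to 19.8%) and 73.9% in pNK (73.1 to 74.8%). Among the listed rows, the leading one was thus miR-130a-3p in the uterine library and miR-454-3p in the blood library. In pNK the next largest share belonged to miR-130b-5p, at 10.8% (10.2 to 11.4%), which was 0.169% of the family reads in uNK. The remaining 5 rows held between 0.0397% and 1.18% of the family reads each in uNK, and between 0.0200% and 4.84% in pNK.

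**Figure D1:**
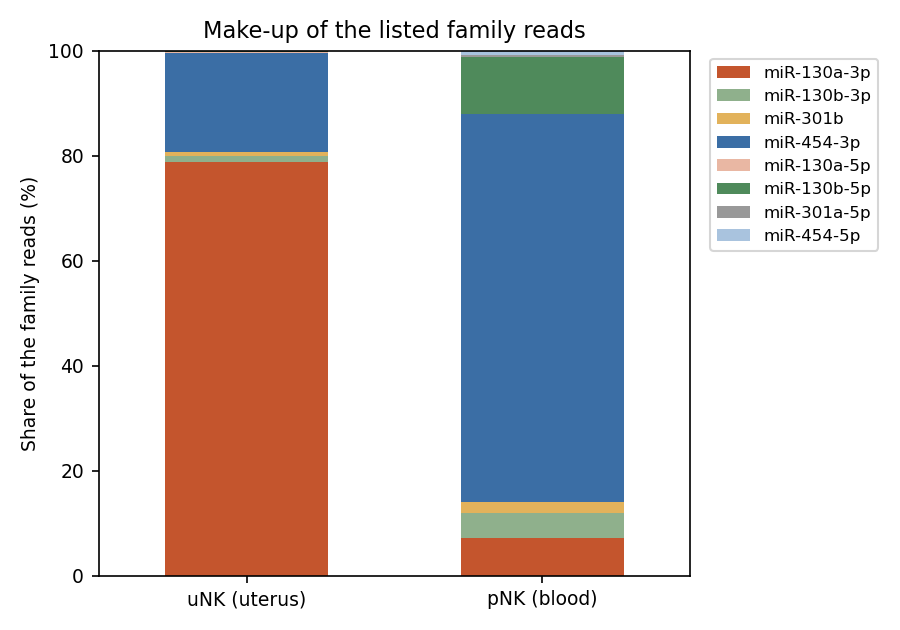
Share of the summed reads of the 8 listed family rows (vertical axis, in percent) that each row took in either library. Each bar is 1 library and adds up to all reads of these rows, 10068 in uNK and 10015 in pNK. miR-130a-3p takes 78.8% of the uNK bar, and miR-454-3p takes 73.9% of the pNK bar.

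miR-130a was the member with the higher level in the uterine library. miR-130a-3p had 7937 reads (250 RPM) in uNK and 712 reads (23.7 RPM) in pNK, and was 10.5-fold higher in uNK (9.77 to 11.4). By read number it ranked 59th of the 590 listed miRNAs in uNK and 157th in pNK. Its partner miR-130a-5p was barely detected, with 10 reads in uNK and 2 reads in pNK. The ratio of those counts on the RPM scale was 4.73, with an interval of 1.01 to 44.4 that leaves its size undetermined at this depth.

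Both arms of miR-454 and the 5p arm of miR-301a, whose precursors lie within the span of SKA2, were lower in the uterine library. Whether these precursors are transcribed with SKA2 was not tested. miR-454-3p had 1910 reads (60.1 RPM) in uNK and 7406 reads (246 RPM) in pNK, and was 4.10-fold lower in uNK (3.90 to 4.31). It ranked 111th in uNK and 73rd in pNK. miR-454-5p had 4 reads in uNK and 88 reads in pNK, and was 23.3-fold lower in uNK (8.77 to 87.2). miR-301a-5p had 7 reads in uNK and 31 reads in pNK, and was 4.68-fold lower (2.02 to 12.6). All 3 listed arms of these precursors therefore had fewer reads in uNK, although those of the 5p arms are few. They do not include miR-301a-3p, so the level of that arm is not known from these values.

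miR-130b and miR-301b were lower in uNK as well. miR-130b-3p had 119 reads (3.74 RPM) in uNK and 485 reads (16.1 RPM) in pNK, and was 4.31-fold lower (3.52 to 5.31). miR-301b had 64 reads (2.01 RPM) in uNK and 210 reads (6.99 RPM) in pNK, and was 3.47-fold lower (2.61 to 4.66). These folds lay near that of miR-454-3p, and their intervals overlap. miR-130b-5p stood apart from its own 3p arm, with 17 reads (0.535 RPM) in uNK and 1081 reads (36.0 RPM) in pNK, and was 67.2-fold lower (41.8 to 116).

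**Figure D2:**
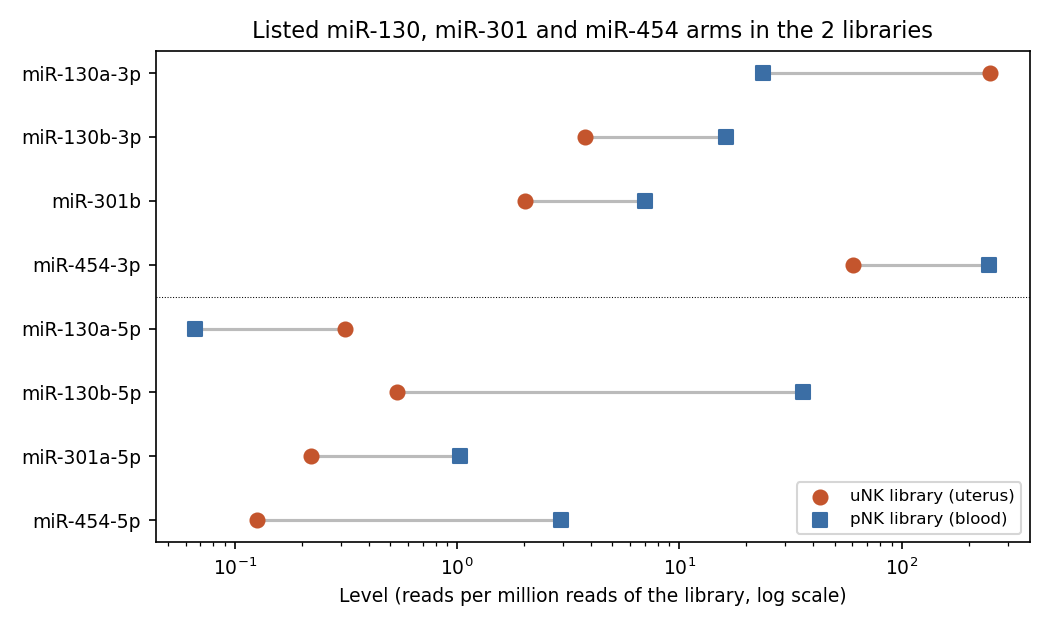
Level of each listed family row in RPM (horizontal axis, log scale), with 1 point for the uNK library and 1 for the pNK library; rows of a 3p arm or of no named arm are above the dotted line and 5p arms below it. The uNK point lies to the right of the pNK point for both arms of miR-130a, and to the left for the other 6 rows.

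The authors' deposited table marks 2 of the 8 rows, both of miR-130a, as higher in uNK, a direction that 38% of all listed miRNAs have, and 6 as lower, a direction that 62% have. On the scale of log2(RPM + 1), which understates the change of low miRNAs, 1 row was more than 1 unit higher in uNK, against 29.3% of the listed miRNAs, and 5 rows were more than 1 unit lower, against 45.3%. Among the 314 annotated miRNAs, to which all members belong, these shares were 45.2% and 42.0%. The median difference of the 8 rows on that scale was -1.60, and that of all 590 was -0.74. The members were chosen from a table that lists only miRNAs called different, so nothing is read from these counts. The log2 ratio in the authors' deposited table was 3.74 for miR-130a-3p and -1.69 for miR-454-3p. For the members it lies 0.35 above the log2 ratio of the RPM values. No log2 ratio in the authors' deposited table has a size under 1.01, and among the members miR-301b comes nearest to that limit, at -1.45.

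**Figure D3:**
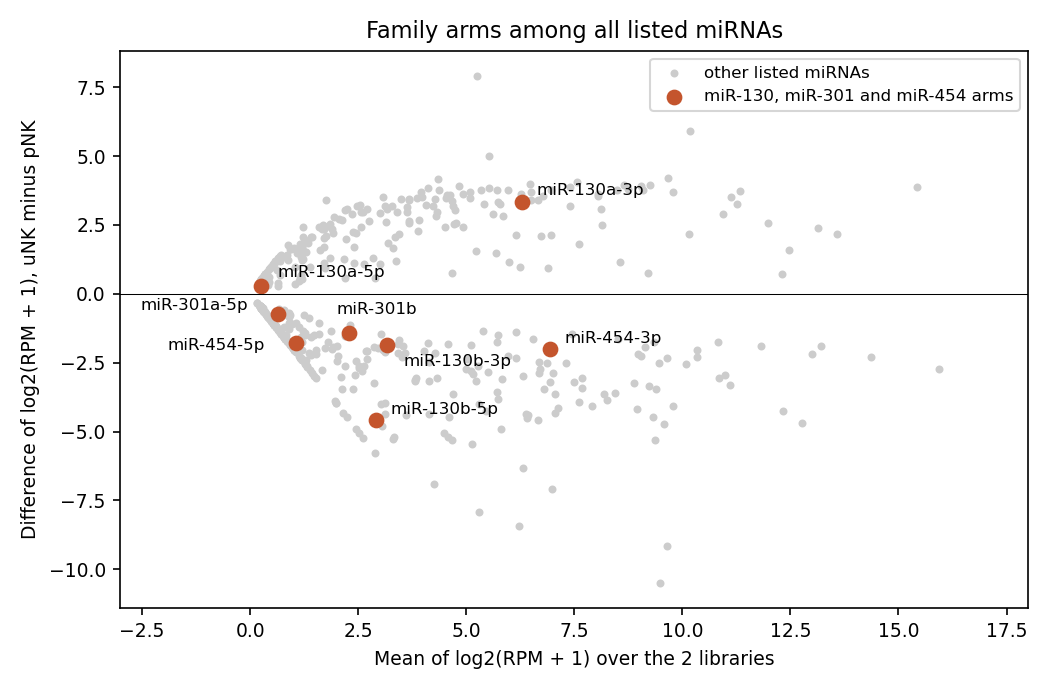
Difference of log2(RPM + 1) between uNK and pNK (vertical axis) against the mean of log2(RPM + 1) over both libraries (horizontal axis) for the 590 listed miRNAs; each point is 1 miRNA and the family rows are labelled. miR-130a-3p lies at 3.34 and miR-454-3p at -2.02, and the 5p arms of miR-130a, miR-301a and miR-454 lie at the low end of the horizontal axis.

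The ratio between members within a library, which is free of the scaling, separated miR-130a-3p from miR-454-3p and miR-130b-3p. miR-130a-3p had 4.16 times as many reads as miR-454-3p in uNK (3.95 to 4.37), and 0.0961 times as many in pNK (0.0889 to 0.104). That ratio was 43.2 times as large in uNK as in pNK (39.4 to 47.4). Against miR-130b-3p, its closest namesake, miR-130a-3p had 66.7 times as many reads in uNK (55.7 to 80.6) and 1.47 times as many in pNK (1.31 to 1.65). By contrast, the ratio of miR-454-3p to miR-130b-3p was 16.1 in uNK and 15.3 in pNK, and its change, 1.05, had an interval of 0.853 to 1.30 that includes no change. The ratio of miR-301b to miR-130b-3p was 0.538 in uNK and 0.433 in pNK, with a change of 1.24 (0.864 to 1.77). Between the 5p arms of the precursors within the span of SKA2, the ratio of miR-301a-5p to miR-454-5p was 1.75 in uNK and 0.352 in pNK. That is a change of 4.97 (1.15 to 24.4), which rests on 7 and 4 reads in uNK. Ligation and amplification can favour one miRNA over another, so a ratio within a library need not be that of the molecules, whereas the change of a ratio is less affected if both libraries were made alike.

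Arm use could be compared for the 3 precursors whose 2 arms were both in the table, each with 10 reads or more when both libraries are added. For miR-130b the larger arm differed between the libraries. The 5p arm gave 12.5% of its reads in uNK (7.45 to 19.3%) and 69.0% in pNK (66.7 to 71.3%), so the ratio of 5p to 3p was 15.6 times lower in uNK (9.20 to 27.9). For miR-454 the 3p arm led in both libraries, and the 5p arm gave 0.209% of the reads in uNK (0.0570 to 0.534%) and 1.17% in pNK (0.943 to 1.44%), a ratio 5.67 times lower in uNK (2.13 to 21.3). For miR-130a the 5p arm gave 0.126% in uNK (0.0604 to 0.231%) and 0.280% in pNK (0.0339 to 1.01%), and the interval of the change includes none.

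By point values, such changes were common among the precursors with both arms in the table. Since it lists only miRNAs called different, the counts and ranks below hold for that set only. Of 94 precursors with both arms listed, the log2 ratio of 5p to 3p, after adding 0.5 reads to each arm, differed by at least 1 between the libraries in 54. It was lower in uNK in 47 of the 94, and the median size of the difference was 1.11. The difference of miR-130b, -3.93, was the 7th in size, that of miR-454, -2.34, the 13th, and that of miR-130a, -1.41, the 33rd. The larger arm differed between the libraries in 6 precursors, and in 2 of these, miR-130b and miR-29c (named after its values were seen), it was the 3p arm in uNK and the 5p arm in pNK. Summed over the 4 listed 5p arms of the family, the level was 1.20 RPM in uNK and 39.98 RPM in pNK, and miR-130b-5p supplied 0.535 RPM of it in uNK and 36.0 RPM in pNK.

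**Figure D4:**
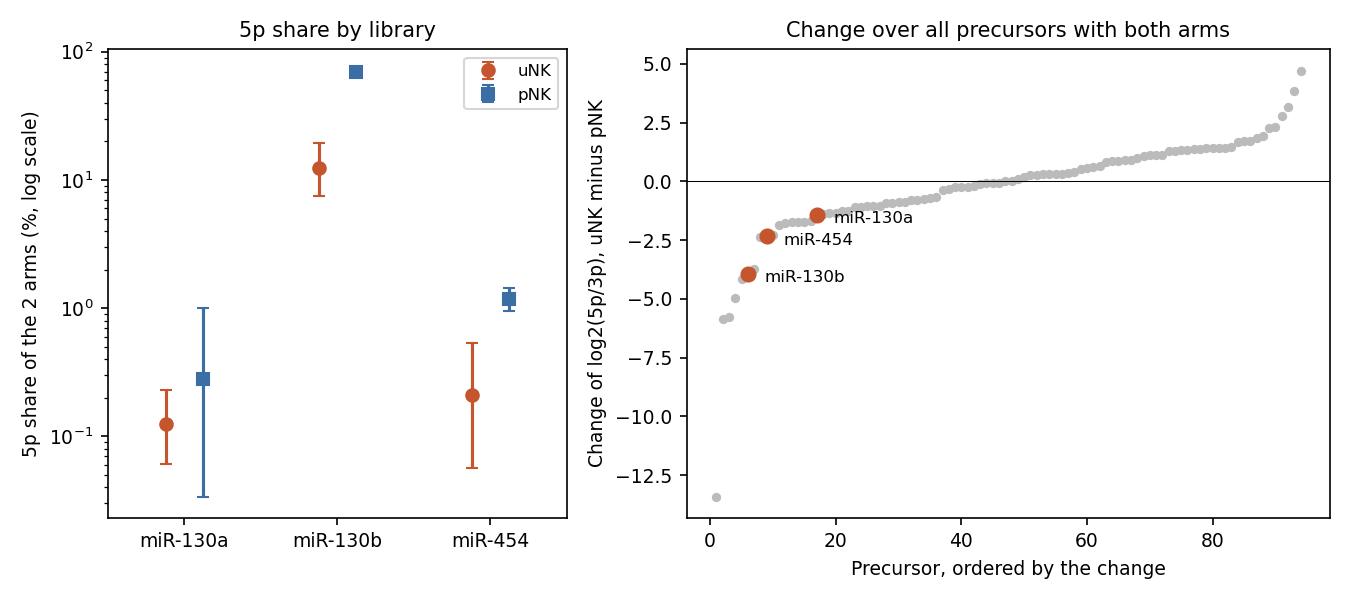
Left, the 5p arm's share of the reads of both arms (vertical axis, in percent, log scale) of miR-130a, miR-130b and miR-454 in uNK and in pNK, with 95% Clopper-Pearson intervals. Right, the difference of log2(5p/3p) between uNK and pNK (vertical axis) for the 94 precursors with both arms listed, in order of that difference; miR-130b lies at -3.93, miR-454 at -2.34 and miR-130a at -1.41.

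Other miRNAs have seeds that overlap with that of the family, shifted by a base. They are miR-19, a member of the miR-17-92 cluster, and miR-148 with miR-152, which repress DNMT1 in human cells. The lists took every arm in the table, but 5p arms do not carry these seeds, so miR-19a, whose name gives no arm, and miR-148a-3p are the rows that can. miR-19a had 218 reads in uNK and 969 in pNK, and was 4.70-fold lower (4.05 to 5.47). miR-148a-3p had 17826 reads (561 RPM) in uNK and 7607 reads (253 RPM) in pNK, and was 2.22-fold higher (2.16 to 2.28). Of the 5p arms, miR-19b-5p had 12 reads in uNK and 45 in pNK, and miR-148b-5p, with 14 reads in uNK and 69 in pNK, was 5.21-fold lower (2.91 to 10.02). The fold of miR-19a had an interval overlapping those of miR-130b-3p and miR-454-3p, and miR-130a-3p lay above miR-148a-3p in fold but not in level.

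The miRNAs with the pattern most like each member were taken from 249 annotated miRNAs outside the family with at least 100 reads in the higher library, by the distance between their differences of log2(RPM + 1). With 2 libraries, such likeness is a single number per miRNA. This scale understates the change of low miRNAs, so a near value need not mean a like fold. miR-454-5p, 23.3-fold lower in uNK, lay near miR-101-3p, which had 11.8 RPM in uNK and 44.3 RPM in pNK. Likewise miR-147-5p, near miR-454-3p, had only 4 reads in uNK and 109 in pNK. Nearest to miR-130a-3p, at 3.34, were miR-125b-3p at 3.36, miR-432-5p at 3.32 and miR-429 at 3.39. Nearest to miR-454-3p, at -2.02, were miR-505-3p, miR-147-5p and miR-98-5p, at -2.04, -2.04 and -2.05. miR-582-5p, miR-345-3p and miR-101-3p were nearest to miR-130b-3p, and miR-20b, miR-324-3p and miR-30c-3p to miR-301b. Nearest to miR-130b-5p, at -4.59, were miR-425-5p at -4.57, miR-191-5p at -4.69 and miR-330-3p at -4.47. The low rows had miR-101-3p, miR-345-3p and miR-30d-3p (miR-454-5p), miR-16b-3p, miR-338-3p and miR-324-3p (miR-301a-5p), and let-7b-3p, miR-144-3p and miR-24-3p (miR-130a-5p) as their nearest. No candidate lay close to the summed family, at -0.07. Its 5 nearest, let-7b-3p, miR-144-3p, miR-24-3p, miR-374b-5p and miR-335-5p, lay between 0.56 and 0.74, since the table lists no unchanged miRNAs.

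The listed markers of lymphocytes and of other cells were higher in uNK for some and lower for others. Since the table lists only miRNAs called different, every listed marker had to differ, and markers that did not differ are not seen. The summed level of 11 listed stromal and smooth muscle arms (miR-143, miR-145, miR-199 and miR-214) was 191215 RPM in uNK and 12890 RPM in pNK, and all 11 were higher in uNK. The 5 epithelial arms summed to 3592 RPM in uNK and 257 RPM in pNK, and both arms of the endothelial miR-126 to 10555 RPM in uNK and 1769 RPM in pNK. Of the lymphocyte marker list, 4 arms were in the table, at 186 RPM in uNK and 20518 RPM in pNK. That list also holds miR-142 and miR-181a, which have no arm in the table, so the sum does not stand for lymphocyte markers in general. Most of the pNK sum was miR-150, at 32.2 RPM in uNK and 19052 RPM in pNK. miR-155-5p had 153 RPM in uNK and 1464 RPM in pNK. miR-181b-3p was very low in both libraries, with no read in uNK and 0.266 RPM in pNK. Other miR-181 members, which are not on that list and were named after their values were seen, were higher in uNK: miR-181d had 63.2 RPM in uNK and 20.9 RPM in pNK, and miR-181c-5p 106 RPM in uNK and 53.4 RPM in pNK. Both arms of the myeloid miR-223 stood at 21.1 RPM in uNK and 28632 RPM in pNK. The 4 red cell arms summed to 9817 RPM in uNK and 3258 RPM in pNK, and the 4 muscle arms to 1329 RPM in uNK and 107 RPM in pNK. The pNK count of miR-130a-3p was 8.97% of its uNK count, and the part of other cells in the family's levels was not tested.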

How the data were processed

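Small RNA was sequenced from 1 uNK and 1 pNK library, and groups follow the source names. The deposited table, named for DEGseq and a filter, holds 590 mature miRNAs (314 annotated, 276 predicted). Per the file headers it has read counts, expression values that behave as RPM in the deposited table, and the authors' log2 ratio, p-value and q-value, the last 2 of which were not used because they compare 2 libraries. The sources used here name no aligner, counting tool or build. Library totals were taken as count over RPM for miRNAs of at least 5000 reads (31780925 in uNK, 30063449 in pNK), and RPM was recomputed from counts and these totals. The listed miRNAs took 37.4% of the reads in uNK and 47.5% in pNK.

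Folds are ratios of RPM; log2 values have 1 RPM added. Named were all members, both lists of overlapping seeds, and the most alike miRNAs. The members and lists were chosen with earlier results of these data known. PCR reads without molecular identifiers are not independent molecules. Interval code was tested on simulated counts. Alternatives were scalings (TMM from edgeR 4.0.16, R 4.3.3), pseudocounts, thresholds and count filters. Python 3.11.15, scipy 1.17.1 and matplotlib 3.10.9 were used.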

Additional observations from a re-analysis of the deposited data

How the results depend on the processing

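No paired analysis was possible because there is a single library on either side, and neither could be left out. All 56 values of the 8 members under the other scalings, pseudocounts and the authors' deposited log2 ratio kept their sign. This was fixed in advance and is no support. The authors' log2 ratio of every member has a size of at least 1.45. No scaling shifted log2 values by more than 0.74, and a pseudocount cannot change a sign. The value of miR-130a-3p lay between 2.69 and 4.07, that of miR-454-3p between -2.68 and -1.28. Relative to the library totals, the listed totals shifted log2 values by 0.35, TMM by 0.74 and the median ratio by -0.67. The summed family, at -0.07, moved to 0.27, 0.67 and -0.74 under these, and to 0.11 without the 5p arms; the sum without the 5p arms moved to 0.45, 0.85 and -0.56. Each shift follows from the scaling itself, which rests on miRNAs called different. Without the 5p arms the pNK shares were 8.08% for miR-130a-3p and 84.0% for miR-454-3p. With a threshold of 2, 2 members (5 with a threshold of 1) and 25.8% of the listed miRNAs were lower in uNK. The listed miRNAs lower by more than 1 numbered 267, of which 132 are annotated; among annotated miRNAs 45.2% were higher by more than 1, against 29.3% of all listed. The median of the miR-148 and miR-152 list, at -0.02, lies between a 3p and a 5p arm and so describes no single seed; it turned to 0.24 (listed totals), 0.53 (TMM) and 0.35 (5 RPM added). With at least 100 reads per arm only the arm ratio of miR-130b was left. Depth limits the 5p arms of miR-130a, miR-301a and miR-454, with 4 to 10 reads in uNK.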
